A study of Drosophila melanogaster with 10 samples.

Results

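The comparison set 8 embryo libraries that carried any of 4 dacapo transgenes against 2 control libraries without one. It asked which transcripts differed from the control in the mean of the 4 forms, and a call did not require a difference in every form. All 10 libraries of the series entered it. Each form was weighted equally, and a gene was tested when at least 2 of the 10 libraries reached 1 RPKM (reads per kilobase of transcript per megaread mapped). That kept 10396 of the 15422 genes in the deposited table. The gene just inside this limit, CG17036, had 1.0005 RPKM in its second highest library, and the gene just outside, CG32071, had 0.9991.

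PolyA RNA was read from Drosophila melanogaster embryos of stage 15 to 16 grown at 25 degrees Celsius, with 2 independent samples per genotype. Control embryos were pros-Gal4/+ and carried the driver alone. The other genotypes carried pros-Gal4 with UAS-dap, which encodes wild-type Dacapo, or with UAS-dap[CRL4], UAS-dap[PCNA] or UAS-dap[CDI], each described in the labels as encoding a stabilized Dacapo. The 5 genotypes therefore shared the driver, and the control differed from every form by the absence of a UAS transgene. The labels do not give the strain that the driver was crossed to for the control, so effects of a transgene and of strain background cannot be told apart here.

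Dacapo is the fly inhibitor of the CIP/KIP family, related to mammalian p21 and p27, and it blocks the Cyclin E and Cdk2 complex that starts DNA replication. A degron in such inhibitors binds PCNA on DNA and is then read by the CRL4-Cdt2 ubiquitin ligase, which destroys the protein in S phase. The pros-Gal4 driver uses regulatory sequence of prospero and is active mainly in the developing nervous system, where dacapo is known for ending the divisions of neural progenitors. Whole embryos were profiled, so the driver's cells contributed only a part of the RNA.

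Counted reads, estimated from the values of genes with few reads, ran from 17.1 to 22.5 megareads in the form libraries and were 25.8 and 25.3 megareads in the controls, so both controls were deeper than all 8 others. The 2 libraries of a genotype differed by a median of 0.0909 log2 for dapPCNA, 0.0955 for the control, 0.0994 for dapCRL4, 0.127 for dap and 0.171 for dapCDI. Summed RPKM of the neuronal marker list was 238.4 and 241.1 in the controls and lay between 150.8 and 231.9 in the form libraries. Those ranges did not overlap, whereas the summed markers of glia, muscle, hemocytes, neuroblasts, germ cells, fat body and of trachea with epidermis overlapped between the groups. The neuronal list held 4 genes, and none passed 0.05 in limma's moderated test of the pooled forms (adjusted p from 0.0841 to 0.318). Their differences were −0.52 log2 for elav, −0.55 for brp, −0.41 for Syt1 and −0.14 for n-syb. With the trend with gene length, described below, removed in each library, they were −0.29, −0.29, −0.25 and −0.07 log2. Whether the gap in the neuronal sums went with gene length was not tested. Over all genes tested, 7.87% had all 8 form libraries below both controls. In whole embryos fewer cells of a type and less RNA per cell cannot be told apart.

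Across the 4 forms together, more genes rose than fell, and most of the rises were small. In limma's moderated test with Benjamini-Hochberg adjustment over all genes tested, 638 genes were called at an adjusted p under 0.05, which is 6.14% of the 10396. At an unadjusted p under 0.05 there were 2876 genes (27.7%). Of the 638, 496 (4.77% of those tested) were higher and 142 (1.37%) were lower in the forms. The median called change was 0.38 log2 for higher and −0.51 log2 for lower genes, against 0.03 over all genes tested. Changes of at least 2-fold were called for 54 higher and 21 lower genes. All 8 form libraries lay above both controls for 450 of the 496 higher genes, and below both for 119 of the 142 lower genes. Over all genes tested, 12.4% had all 8 form libraries above both controls and 7.87% had them below.

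**Figure D1:**
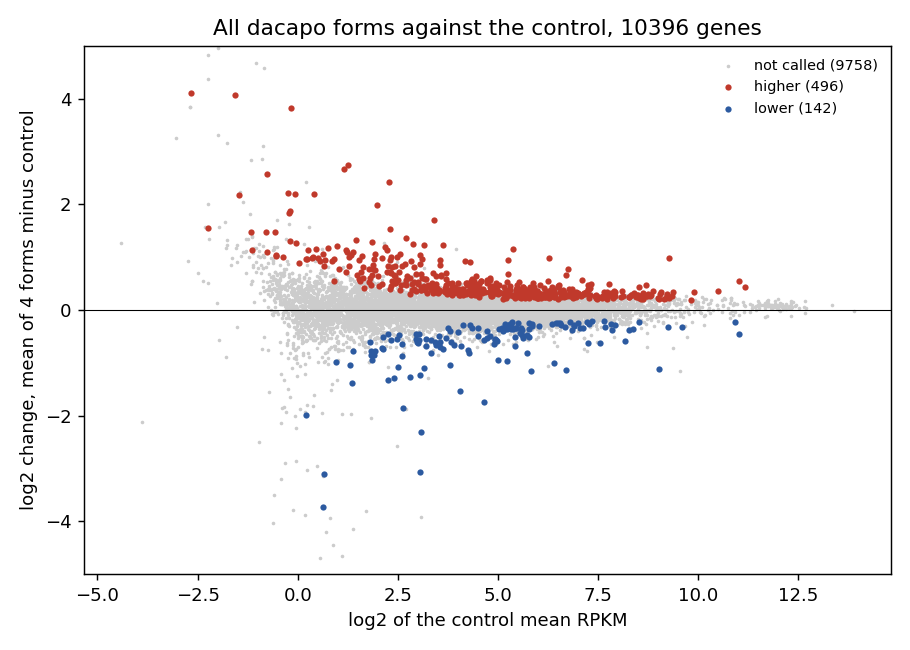
Mean log2 RPKM difference between the 4 dacapo forms and the control (vertical axis) against the log2 of the control mean RPKM (horizontal axis), 1 point per gene tested. Coloured points were called at an adjusted p under 0.05: 496 higher and 142 lower. The axes leave out 18 genes, 2 of them called, whose control mean was 0.02 RPKM or less or whose difference exceeded 5 log2.

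The number of calls rested heavily on single libraries. Without control 1 the test called 85 higher and 18 lower genes, and without control 2 it called 60 and 17. Without dapCDI 2 it called 1376 higher and 579 lower genes, without dapCDI 1 it called 746 and 257, and without dap 1 it called 379 and 243. Without dap 2 the counts were 259 and 80, without dapCRL4 1 they were 303 and 95, and without dapCRL4 2 they were 203 and 69. Without dapPCNA 1 they were 294 and 69, and without dapPCNA 2 they were 205 and 60. A core of 48 genes, 38 higher and 10 lower, was called with each of the 10 libraries left out in turn, and in all 48 the 8 form libraries lay on 1 side of both controls.

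In the core above, CG31219, CG8539, CG31288, y, Ir64a, p24-2 and Mst57Dc passed the filter through the form libraries only. Their place in the core is therefore no independent support for a rise. The 4 forms share the same 2 controls, so agreement between them in the called genes is a description only. The form means of a called gene spanned a median of 0.27 log2, against 0.24 over all genes tested. The forms differed among themselves for 52 genes (0.5% of those tested, moderated F test over the 4 form means, adjusted p under 0.05), and 23 of these were also called against the control. They made up 3.61% of the called genes, while 0.297% of the genes not called differed among forms. Both tests use the same estimate of each gene's spread, so a gene with little spread passes both more easily. The 2 shares are a description only. Tested singly against the same controls, 887 genes (8.53% of those tested) were higher and 340 (3.27%) lower for dap, and 107 (1.03%) and 44 (0.423%) for dapCRL4. For dapPCNA the counts were 77 (0.741%) and 58 (0.558%), and for dapCDI 492 (4.73%) and 294 (2.83%). Of the 638 genes, 64 were called in all 4 single tests, 49 higher and 15 lower, and 22 were called in none of them.

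The transgene's own gene came first. dap, on chromosome 2R at 9712321 to 9716256, had 70.5 and 70.7 RPKM in the controls, and the form libraries ran from 70.7 through a median of 82.2 to 170.2 RPKM. All 8 lay above both controls, the lowest by a margin smaller than the spread between replicates. The mean change was 0.41 log2 (SE 0.05, 95% interval 0.29 to 0.53), or 1.33-fold (adjusted p = 0.00342). Most of it came from dapCDI, at 170.2 and 156.2 RPKM and 1.21 log2, while dap reached 0.26, dapCRL4 0.15 and dapPCNA 0.03 log2, and the forms differed (moderated F test, adjusted p = 0.000449). Without the dapCDI libraries the call was lost (adjusted p = 0.442). It was also lost without control 1 (adjusted p = 0.0548) or control 2 (adjusted p = 0.0615). Whether reads of the transgenes could be counted toward dap is not given in the sources used here, so the gene checks the labels only in part.

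Transcripts of Dacapo's partners moved little. CycE encodes Cyclin E, the cyclin that Dacapo's kinase target needs. It had 13.4 and 11.2 RPKM in the controls and 11.4, 11.98 and 14.9 RPKM as the lowest, median and highest form library. The groups overlapped, and the difference was 0.02 log2 (95% interval −0.23 to 0.27, adjusted p = 0.926), with a sign that turned negative without control 2, at −0.11 log2, among other settings. Cdk2, named cdc2c in the table, encodes that kinase. It had 20.5 and 20.1 RPKM in the controls against 16.8, 19.8 and 26.2 RPKM, and its difference of −0.01 log2 (95% interval −0.19 to 0.18, adjusted p = 0.972) changed sign under several settings, as in the fit without control 1 at 0.01 log2. ago encodes Archipelago, an F-box protein through which Cyclin E is sent for destruction. It stood at 43.5 and 43.7 RPKM in the controls and at 31.2, 36.6 and 40.3 RPKM in the forms. All 8 form libraries lay below both controls, and the difference of −0.26 log2 (95% interval −0.42 to −0.11) narrowly missed the threshold (adjusted p = 0.0504).

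Several of the largest rises came from a very low control level. CG31219, on chromosome 3R at 19651018 to 19652430, had 0.935 and 0.839 RPKM in the controls and 11.1, 12.4 and 14.5 RPKM as the lowest, median and highest form library. The difference was 3.82 log2 (SE 0.09) or 14.2-fold (adjusted p = 2.22e-08), and it lay between 3.73 and 3.97 log2 in every form. CG31219 overlaps CG6184, and without known strand the reads of overlapping genes cannot be told apart. CG8539 on 3L went from 0.402 and 0.273 RPKM to 4.26, 5.69 and 7.04 RPKM, a 16.8-fold difference (4.07 log2, SE 0.19, adjusted p = 3.85e-06). CG34437 on 3R went from 2.33 and 2.42 RPKM to 11.6, 16.2 and 18.7 RPKM, or 6.74-fold (adjusted p = 3.85e-06). Every form library of both genes was above both controls. CG17244 on 3R rose 5.39-fold (adjusted p = 3.85e-06), from 5.26 and 4.54 RPKM to a median of 26.2 RPKM. CG31288 on 3R rose 3.65-fold (adjusted p = 0.000107). These 5 calls held with each of the 10 libraries left out. CG31219, CG8539 and CG31288 were under 1 RPKM in both controls and were tested only because the forms were high, so that a rise was the one direction open to them. The same holds for y, Ir64a, p24-2, Mst57Dc, CG15696 and GstD8, whose values are given with the same limit. Among the other large rises, BobA (4.67-fold, adjusted p = 0.00259), CG13056 and CG15696 lost their calls without control 1. The call of CG13056 was also lost without any 1 of the dap, dapCRL4 or dapPCNA libraries, and without any 1 of the 4 forms. That of CG15696 was also lost without dap 2, dapCRL4 2 or dapPCNA 2, and without the form dap or dapCRL4. The controls of CG13056, at 0.129 and 1.06 RPKM, were themselves far apart.

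**Figure D2:**
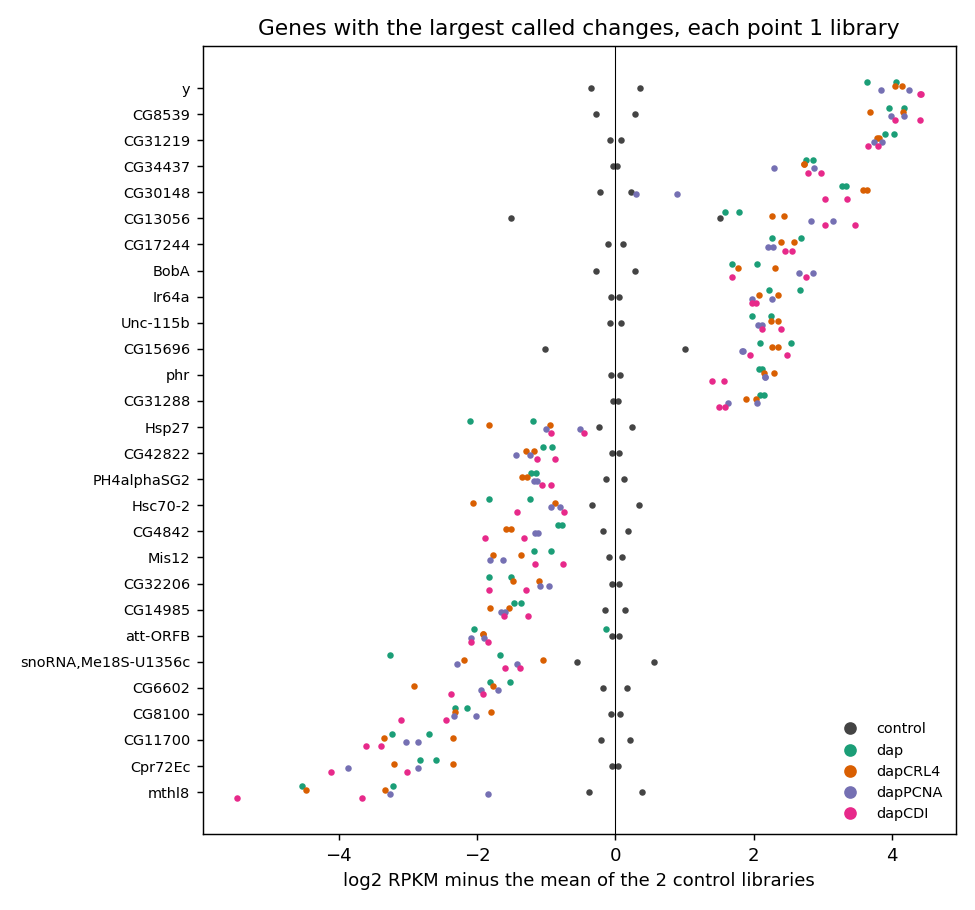
Log2 RPKM minus the mean log2 RPKM of the 2 controls (horizontal axis) in each of the 10 libraries for the largest called rises and falls, with 1 row per gene and 1 point per library, coloured by genotype. p24-2 and Mst57Dc are left out because they were listed at 0 in a control library. The form libraries of CG31219 cluster near 3.82 log2, whereas for CG30148 the dapPCNA libraries, at a mean of 0.59, stand apart from the other forms.

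A pigment gene, a repair gene and a sensory receptor were among the large rises. y encodes Yellow, a secreted protein needed for black cuticle pigment, and is carried in mutant or wild-type form by many laboratory strains. It had 0.119 and 0.195 RPKM in the controls and 1.91, 2.62 and 3.28 RPKM in the forms, a 17.2-fold difference (4.10 log2, SE 0.23, adjusted p = 1.48e-05), and it overlaps CG32816. Because y passed the filter through the forms only, a rise was the one direction open to it. The pigment transporter gene w, which marks many inserted transgenes, had 48.9 and 49.6 RPKM in the controls against 45.0, 49.0 and 55.1 RPKM, with overlapping groups (−0.01 log2, adjusted p = 0.94). phr encodes the photolyase that repairs ultraviolet lesions with light, and overlaps Prosalpha1. It had 4.09 and 3.74 RPKM in the controls and 10.3, 17.2 and 19.1 RPKM in the forms, or 3.98-fold (1.99 log2, SE 0.08, adjusted p = 1.86e-06). Its rise was smallest in dapCDI, at 1.49 log2 against 2.10 to 2.22 in the other forms (moderated F test, adjusted p = 0.0314). Ir64a, an ionotropic receptor for acid sensing, rose 4.59-fold (adjusted p = 5.54e-05), and it too passed the filter through the forms only.

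CG30148 on 2R was the clearest case of a large call that 1 form did not share. Its controls had 2.59 and 1.90 RPKM. The dap, dapCRL4 and dapCDI libraries lay between 18.2 and 27.6 RPKM, while dapPCNA had 4.11 and 2.72 RPKM. The mean over forms was 2.68 log2 (adjusted p = 2.03e-05), with dapPCNA at 0.59 and the others between 3.20 and 3.61 log2, and the forms differed (moderated F test, adjusted p = 0.000841). When the 8 libraries were treated as 1 group the call was lost (adjusted p = 0.101).

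A cluster of neighbouring genes near 9.7 Mb on 3R rose together. p24-2 belongs to the p24 cargo receptor family of the early secretory pathway. It was listed at 0 in control 1 and at 0.0539 RPKM in control 2, and had 9.62, 12.9 and 16.1 RPKM as the lowest, median and highest form library (adjusted p = 0.00018). Unc-115b, an actin-binding protein gene that overlaps p24-2, went from 1.39 and 1.24 RPKM to 5.18, 6.0 and 6.96 RPKM, or 4.57-fold (adjusted p = 1.16e-05). Unc-115a, its paralog next to it, went from 103.2 and 112.0 RPKM to 167.7, 183.4 and 210.6 RPKM, or 1.71-fold (0.77 log2, adjusted p = 0.00018). In all 3 genes every form library lay above both controls, and the forms did not differ past the threshold (moderated F test, adjusted p = 0.523 or more). Reads from the paralogs and from the overlapping genes may have been split or shared in counting. Farther along the arm, Mst57Dc was listed at 0 in both controls and had 0.449, 0.581 and 1.42 RPKM in the forms (adjusted p = 0.000262). Both p24-2 and Mst57Dc passed the filter through the forms only.

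Some of the largest falls held in every fit with 1 library left out. CG11700 on X, a ubiquitin gene close to the polyubiquitin gene Ubi-p5E, had 9.43 and 7.05 RPKM in the controls and 0.668, 0.935 and 1.60 RPKM in the forms, an 8.34-fold fall (−3.06 log2, SE 0.28, adjusted p = 0.000262). Its near-identical repeats make its counts uncertain. CG8100 on 3L went from 8.11 and 8.88 RPKM to 0.994, 1.71 and 2.44 RPKM, 4.95-fold lower (adjusted p = 0.00024). CG14985 on 3L was 2.90-fold lower (adjusted p = 0.000107) and CG42822 on 3R was 2.20-fold lower (adjusted p = 7.01e-05). Each of these 4 genes had all 8 form libraries below both controls. The falls of mthl8 (13.2-fold, adjusted p = 0.0469), CG6602 (3.98-fold, adjusted p = 0.0469), att-ORFB (3.34-fold, adjusted p = 0.0252) and CG32206 (2.61-fold, adjusted p = 0.0122) lost their calls without control 1 or without control 2 (adjusted p from 0.1085 to 0.293), and mthl8 and CG6602 were tested only because the controls reached 1 RPKM.

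Several lower genes have named roles in secretion, vision and cuticle. PH4alphaSG2, a prolyl hydroxylase of the salivary gland, had 51.5 and 61.5 RPKM in the controls and 22.2, 25.1 and 29.6 RPKM in the forms, 2.23-fold lower (adjusted p = 3.32e-05). It overlaps PH4alphaMP. Its paralog PH4alphaSG1 went the other way by 0.33 log2 (adjusted p = 0.0336), a call lost in 6 of the fits with 1 library left out, both controls among them (adjusted p = 0.249 without control 1 and 0.181 without control 2). Cralbp, which encodes a retinoid-binding protein and overlaps PGRP-LD and Pmi, fell by 1.01 on the log2 scale (adjusted p = 0.000107). The cuticle protein gene Cpr72Ec was at 1.53 and 1.63 RPKM in the controls and at 0.0909, 0.207 and 0.312 RPKM in the forms, 8.58-fold lower (adjusted p = 0.0251). Its neighbour CG4842 was 2.41-fold lower (adjusted p = 0.00269). Cpr72Ec reached 1 RPKM in the controls only, so that it could differ only by a fall. The Cpr72Ec call was lost without control 1 (adjusted p = 0.178) or control 2 (adjusted p = 0.226), and that of CG4842 without control 1 (adjusted p = 0.0605).

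In the list of mitosis and chromosome segregation, 9 of 52 genes tested were called lower and 0 higher, where 1.37% of all genes tested were called lower. The 52 include svr, a carboxypeptidase gene placed in the list in error, which was not called. The list's median was −0.29 log2 against 0.03 over all genes, and 15 members had all 8 form libraries below both controls. Over all genes tested 7.87% did so. By form the median was −0.04 log2 for wild-type dap, but −0.38 for dapCRL4, −0.49 for dapPCNA and −0.37 for dapCDI. Relative to each gene's mean over libraries, the list's median was 0.26 and 0.21 log2 in the controls, 0.27 and 0.17 in dap, and between −0.25 and −0.07 in the 6 stabilized-form libraries. The dap libraries thus lay beside the controls and the other forms below them, a split of the list that was not tested. Over all genes the lower calls also changed with what was left out, from 142 to 102 without the form dap. The list's own lower calls follow. The count of lower calls was 0 without control 1 and 1 without control 2, and it was 14 without the form dap, 17 without dapCDI 1 and 21 without dapCDI 2. It was 5 without dapCRL4 1 or dapPCNA 2.

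**Figure D3:**
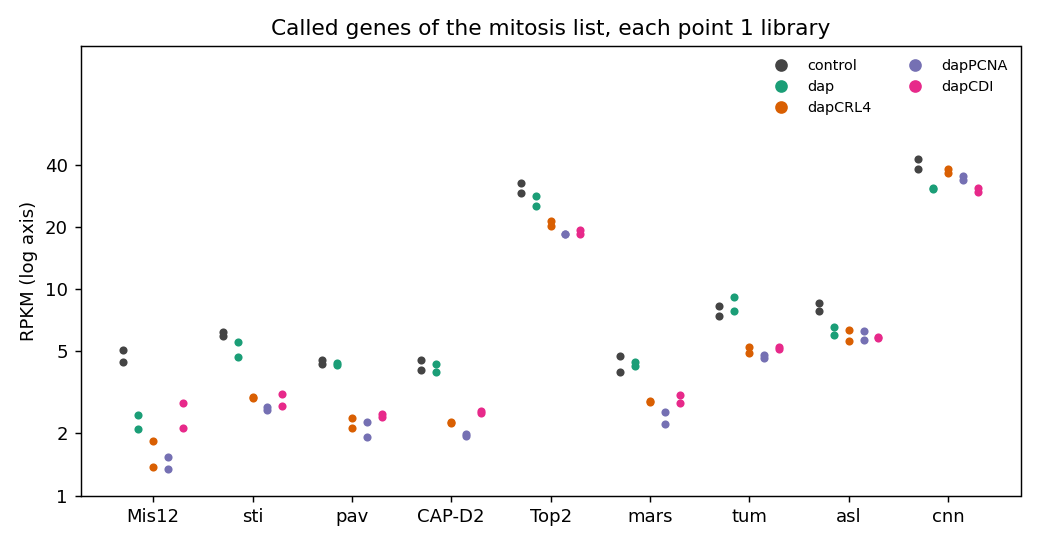
RPKM on a log axis in each of the 10 libraries for the 9 called genes of the mitosis list, 1 column per gene, 1 point per library, coloured by genotype. For pav, CAP-D2, tum and mars the dap libraries lie among or beside the controls and the stabilized forms lie lower, while for Mis12, sti, Top2 and asl all 8 form libraries lie below both controls.

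The called mitotic genes act from the kinetochore to the final cut between daughter cells. Mis12, a kinetochore subunit, had 5.05 and 4.42 RPKM in the controls and 1.35, 1.97 and 2.79 RPKM in the forms, 2.50-fold lower (−1.32 log2, SE 0.18, adjusted p = 0.00388). All 8 form libraries were lower than both controls. sti encodes the citron kinase needed for cytokinesis. It went from 6.16 and 5.90 RPKM to 2.60, 3.0 and 5.57 RPKM (−0.87 log2, adjusted p = 0.00388), with the 2 dap libraries, at 5.57 and 4.70 RPKM, closest to the controls. Top2, the topoisomerase that untangles sister chromosomes, went from 32.5 and 29.3 RPKM to 18.4, 19.7 and 28.3 RPKM (−0.56 log2, adjusted p = 0.00269), again with dap highest. The calls of Mis12 and sti were lost without control 1 (adjusted p = 0.0773 and 0.0699) or control 2 (adjusted p = 0.0533 and 0.0615), and that of Top2 without control 1 (adjusted p = 0.0605).

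The cytokinesis pair pav and tum, whose products form the centralspindlin complex, and the condensin gene CAP-D2 fell in the mean but not alike in the forms. pav had 4.31 and 4.52 RPKM in the controls and 1.93, 2.38 and 4.39 RPKM in the forms (−0.73 log2, adjusted p = 0.0129), with −0.03 log2 in dap and −0.85 to −1.08 in the others (moderated F test, adjusted p = 0.0497). CAP-D2 fell by 0.72 on the log2 scale (adjusted p = 0.0118), with −0.06 log2 in dap and −0.76 to −1.13 in the others (F test, adjusted p = 0.0484). tum fell by 0.45 on the log2 scale (adjusted p = 0.0295), with 0.11 log2 in dap and −0.59 to −0.73 in the others (F test, adjusted p = 0.0473). In each of these 3 genes the groups overlapped through the dap libraries. The centrosome genes asl (−0.45 log2, adjusted p = 0.0291) and cnn (−0.28 log2, adjusted p = 0.0306) and the spindle gene mars (−0.51 log2, adjusted p = 0.0431) made up the rest. None of these 6 calls held without control 1 or without control 2 (adjusted p from 0.0824 to 0.319). The mitotic cyclins CycB and CycB3 and the kinase gene polo had −0.31, −0.33 and −0.33 log2 and did not pass the test (adjusted p = 0.0722, 0.0568 and 0.0569).

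In the list of DNA replication and nucleotide supply, of 47 genes tested, 5 were called higher and 0 lower, with a median of 0.12 log2 against 0.03 over all genes, and 4.77% of all genes were called higher. By form it was 0.26 log2 for wild-type dap and 0.09 for dapCRL4, with 0.01 for dapPCNA and 0.14 for dapCDI. Relative to each gene's mean over libraries, the list's median was 0.16 and −0.12 log2 in dapCDI, against −0.05 and −0.13 in the controls. It was 0.21 and 0.14 in dap, 0.01 and −0.06 in dapCRL4 and −0.13 and 0.0013 in dapPCNA. Psf1, a subunit of the GINS helicase complex, had 9.81 and 10.9 RPKM in the controls and 13.8, 16.7 and 22.3 RPKM in the forms (0.70 log2, adjusted p = 0.0164). The groups did not overlap. The primase gene DNApol-alpha60 (0.54 log2, adjusted p = 0.0308), the polymerase epsilon subunit gene Pole2 (0.45 log2, adjusted p = 0.04) and the thymidylate synthase gene Ts (0.39 log2, adjusted p = 0.0268) were also called higher. None of these 4 calls held without control 1 or without control 2 (adjusted p from 0.0746 to 0.295).

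In the list of cyclins, their kinases and S-phase entry, 1 of 32 genes was called higher, dap itself, and 1 lower, with a median of −0.06 log2. Of all genes tested 4.77% were called higher and 1.37% lower. The lower one was CycA, the cyclin of S phase and early mitosis, which overlaps CG7264. It had 38.2 and 33.7 RPKM in the controls and 23.5, 26.7 and 37.3 RPKM in the forms (−0.36 log2, adjusted p = 0.0218). Its dap libraries, at 37.3 and 36.0 RPKM, lay with the controls, and the 6 others lay lower, between 23.5 and 28.0 RPKM (moderated F test, adjusted p = 0.0484). The call was lost without control 1 (adjusted p = 0.226) or control 2 (adjusted p = 0.0777). stg, whose product is the Cdc25 phosphatase that opens mitosis, had −0.24 log2 and all 8 form libraries below both controls, without passing the test (adjusted p = 0.0593).

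Among neuroblast and progenitor factors 3 of 29 genes were called lower and 0 higher, where 1.37% of all genes tested were called lower, with a median of −0.07 log2. Hey, a Notch target in newborn neurons, had 8.03 and 8.08 RPKM in the controls and 3.66, 4.91 and 8.31 RPKM in the forms (−0.62 log2, adjusted p = 0.00464). It was level with the controls in dap, at 0.00 log2, and lower in dapCRL4, dapPCNA and dapCDI, at −0.67, −1.09 and −0.73 log2 (moderated F test, adjusted p = 0.0171). nerfin-1, a zinc-finger gene that keeps neurons differentiated, had 30.6 and 30.2 RPKM in the controls and 17.0, 20.4 and 30.3 RPKM in the forms (−0.54 log2, adjusted p = 0.00892). Here too dap was the form nearest the controls, at −0.15 log2. brat, a translational repressor segregated to the differentiating daughter cell, had −0.69 log2 (adjusted p = 0.045) and overlaps several genes. None of the 3 calls held without control 1 or without control 2 (adjusted p from 0.0701 to 0.257). The neuroblast markers mira, wor, ase and dpn of the same list had 0.19, 0.15, 0.14 and −0.02 log2. None of these markers passed limma's moderated test (adjusted p from 0.0864 to 0.896). With the trend with gene length, described below, removed in each library, the list had 2 genes called higher and 3 lower, with a median of −0.02 log2.

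No call fell on the 35 neuronal and synaptic genes tested, whose median was −0.18 log2, on the 14 glial genes, at −0.04, on the 8 germ cell genes, at 0.03, or on the 14 genes of sex and dosage compensation, at −0.02. Of all genes tested 6.14% were called, 4.77% higher and 1.37% lower. At that share few or no calls would be found in lists this short. The neuronal median was lowest for dapCDI and wild-type dap, at −0.39 and −0.34 log2, and was −0.08 for dapCRL4 and −0.03 for dapPCNA. Replicates were far apart, however. Relative to each gene's mean over libraries, the neuronal median was −0.34 log2 in dap 2 but 0.02 in dap 1. Library dapCDI 1 stood at −0.35 log2, while dapCDI 2 stood at −0.05. Each of these lay below both controls, at 0.20 and 0.15 log2. Library dapCRL4 1 was level with the controls, at 0.20 log2, and dapCRL4 2 was lower, at −0.01. The neuronal genes are long, with a median exon length of 7098 bases against 2013 over all genes tested. Among 18 neuropeptide genes, 1 was called higher, Nplp2, at 0.44 log2 (adjusted p = 0.0142), a call lost without control 1 (adjusted p = 0.102) or control 2 (adjusted p = 0.189).

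**Figure D4:**
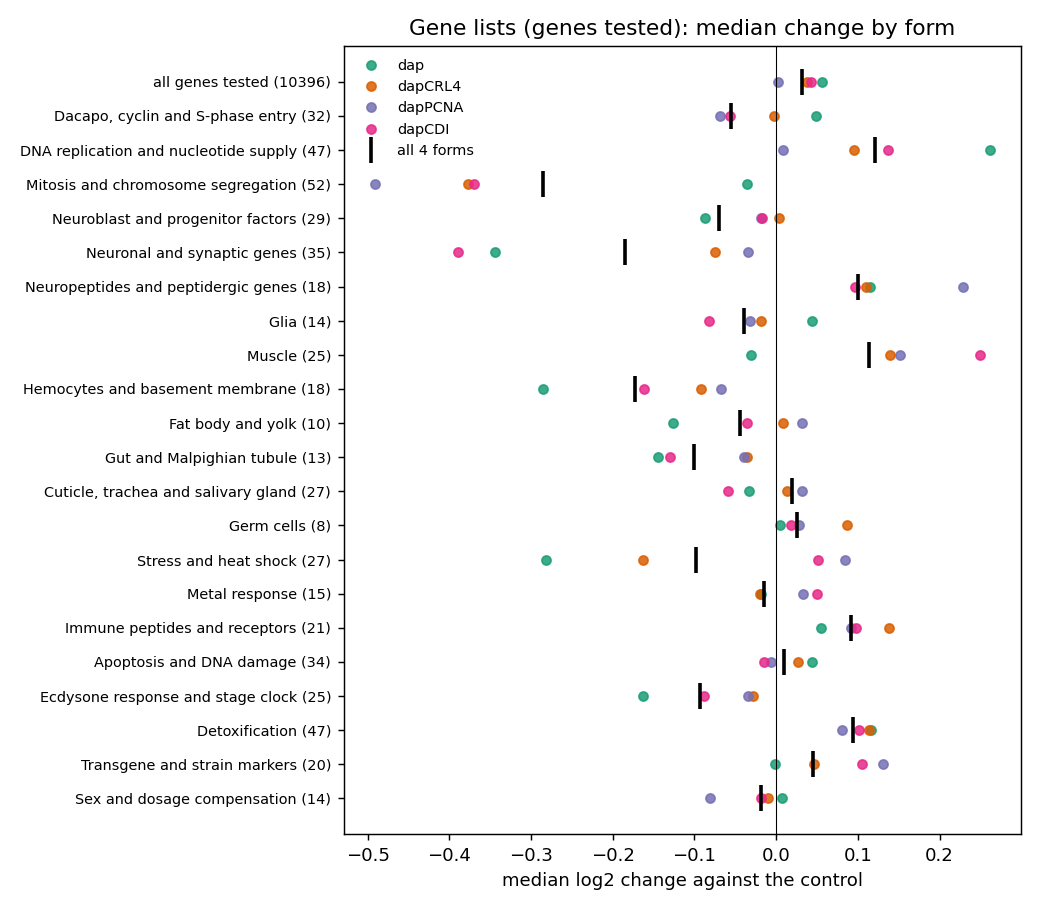
Median log2 RPKM difference from the control over the tested genes of each list, 1 row per list with the number tested in parentheses, the 4 forms as coloured points and their pooled contrast as a black bar. The mitosis list has a pooled median of −0.29 with wild-type dap near 0, at −0.04, and the DNA replication list one of 0.12, against 0.03 for all genes tested.

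Genes of metal handling, immunity and detoxification held some of the firmest single calls. Of 15 metal response genes 2 were higher and 0 lower, against 4.77% and 1.37% of all genes tested, with a median of −0.01 log2. MtnA, which encodes a metal-binding metallothionein, had 576.5 and 668.4 RPKM in the controls and 1043, 1234 and 1350 RPKM in the forms, 1.97-fold higher (0.98 log2, SE 0.08, adjusted p = 0.000131). ZnT35C, a zinc transporter of the Malpighian tubule, had 68.2 and 87.7 RPKM in the controls and 143.7, 154.7 and 164.6 RPKM in the forms, 1.99-fold higher (adjusted p = 0.000107). Neither gene's groups overlapped, and both calls held with each library left out.

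Of 21 immune genes 4 were called higher and 0 lower, where 4.77% and 1.37% of all genes tested were, with a median of 0.09 log2. The secreted immune peptide gene IM1 had 5.06 and 4.30 RPKM in the controls and 6.12, 10.7 and 16.3 RPKM in the forms (1.15 log2, adjusted p = 0.000334), and it differed among the forms, from 0.55 log2 in dapCRL4 to 1.69 in dap (moderated F test, adjusted p = 0.0233). IM2, its neighbour on 2R, had 10.7 and 14.1 RPKM in the controls and 19.7, 29.2 and 42.8 RPKM in the forms (1.24 log2, adjusted p = 0.000934), highest in dapCRL4. Both calls held with each library left out, but that of IM1 was lost with the 8 form libraries as 1 group (adjusted p = 0.0733). PGRP-LB, an amidase that breaks down bacterial cell wall fragments, was 2.26-fold higher (adjusted p = 0.00781), and the serpin gene nec was 1.32-fold higher (adjusted p = 0.0134). PGRP-LB and nec lost their calls without control 1 (adjusted p = 0.107 and 0.115) or control 2 (adjusted p = 0.0533 and 0.153).

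Of 47 detoxification genes 10 were called higher and 3 lower, where 4.77% and 1.37% of all genes tested were, with a median of 0.09 log2. The count was 5 and 2 without control 1, and 3 and 1 without control 2. Ugt35a, a glucuronosyltransferase, had 4.55 and 5.30 RPKM in the controls and 12.97, 14.3 and 14.9 RPKM in the forms, or 2.89-fold (adjusted p = 1.11e-05). The P450 genes Cyp9c1 (2.05-fold, adjusted p = 6.64e-05) and Cyp6a13 (2.09-fold, adjusted p = 0.000705) were higher, and Cyp310a1 (1.69-fold, adjusted p = 0.000631) was lower. These 4 calls held with each library left out, and in all 4 genes the 8 form libraries lay on 1 side of both controls. The glutathione transferase genes GstD8 (2.77-fold, adjusted p = 0.00741) and GstE2 (1.89-fold, adjusted p = 0.00436) were higher, but not without control 2 (adjusted p = 0.11 and 0.0927).

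The heat shock and stress list differed widely between libraries of 1 genotype. Relative to each gene's mean over libraries, its median was −0.10 and −0.46 log2 in the 2 dap libraries, 0.01 and −0.29 in dapCRL4, 0.01 and 0.29 in dapPCNA, 0.44 and −0.08 in dapCDI and 0.16 and −0.06 in the controls. Of 27 stress genes 1 was called higher and 2 lower, against 4.77% and 1.37% of all genes tested, with a median of −0.10 log2. Hsp27, a small chaperone gene, had 604.4 and 434.6 RPKM in the controls and 119.3, 262.0 and 374.5 RPKM in the forms (−1.12 log2, adjusted p = 0.0465), and the 2 dap libraries alone stood at 225.7 and 119.3 RPKM. Its call was lost without control 1 (adjusted p = 0.302), control 2 (adjusted p = 0.19) and 4 of the form libraries. Hsp83, the fly Hsp90 gene, had −0.51 log2 and did not pass (adjusted p = 0.0622).

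The remaining lists held few calls, to be read against the 4.77% of all genes tested that were called higher and the 1.37% called lower. Muscle genes had 1 of 25 called higher, Mlp60A, a muscle LIM protein gene, from 1983 and 2168 RPKM to 2718, 3012 and 3652 RPKM (0.54 log2, adjusted p = 0.00678), and a median of 0.11 log2. Hemocyte and basement membrane genes had 1 of 18 higher and 2 lower, with a median of −0.17 log2. Fat body and yolk genes had 1 of 10 higher, the alcohol dehydrogenase gene Adh (0.47 log2, adjusted p = 0.0113), and a median of −0.04 log2. Gut and Malpighian tubule genes had 1 of 13 higher (median −0.10), cuticle, trachea and salivary gland genes had 2 of 27 higher and 3 lower (median 0.02), and ecdysone response genes had 0 of 25 higher and 1 lower (median −0.09). Apoptosis and DNA damage genes had 1 of 34 higher, phr, and 1 lower, phr6-4, a second photolyase gene, at −0.94 log2 (adjusted p = 0.0356), with a median of 0.01. Transgene and strain marker genes had 2 of 20 higher, y and Adh, with a median of 0.05. The calls of Mlp60A, Adh and phr6-4 were lost without control 1 (adjusted p = 0.105, 0.0558 and 0.259) or control 2 (adjusted p = 0.0559, 0.172 and 0.19).

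The large changes were unevenly placed in the genome. Chromosome 3 carried 58 of the 75 calls of at least 2-fold and 44.1% of the tested genes with a position. On 3L 1.41% of the tested genes and on 3R 1.18% had a call of that size, against 0.246% on X, 0.315% on 2L and 0.331% on 2R. Some of these genes passed the filter only through the group where they were high. On chromosome 3 they include CG31219, CG8539, p24-2, Cpr72Ec, mthl8 and CG6602, and on X they include y. The shares were not recomputed without them. The share of genes called at any size was 8.5% on 3L and 7.57% on 3R, against 3.68% on X, 4.78% on 2L and 5.68% on 2R. Of the 48 genes called with each library left out, 25 lay on 3R, 10 on 3L, 7 on 2R, 4 on 2L and 2 on X. Among windows of 1000000 bases, that starting at 4000001 on 3L held 15 called of 95 tested genes (15.8%), and those starting at 9000001 and 10000001 on 3R held 14 of 136 (10.3%) and 14 of 86 (16.3%). The first 3R window holds p24-2, Unc-115a, Unc-115b and MtnA.

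The direction of small changes went with gene length. Across 10253 genes with an exon length, the log2 difference had a Spearman's rho of −0.483 with length, a description across genes that share the same 10 libraries. In 5 equal groups from the shortest to the longest genes the median difference was 0.17, 0.11, 0.06, −0.02 and −0.13 log2. The span from the shortest to the longest group was widest for wild-type dap, from 0.26 to −0.21 log2. Next came dapCDI, from 0.23 to −0.22. It was narrower for dapCRL4, from 0.13 to −0.05, and dapPCNA, from 0.06 to −0.05. Replicates differed in this trend. Relative to each gene's mean over libraries, dapCDI 1 went from 0.22 to −0.16 log2, but dapCDI 2 from −0.01 to −0.06. Against length, rho was −0.326 for dap 1, −0.548 for dap 2, −0.561 for dapCDI 1 and −0.146 for dapCDI 2. For dapCRL4 1 it was 0.397, but for dapCRL4 2 −0.067. The dapPCNA libraries had 0.420 and 0.178, the controls 0.425 and 0.411. Over the 5 length groups, the share called higher was 10.3%, 6.83%, 4.49%, 1.71% and 0.634%. The share called lower was 0.877%, 1.32%, 1.07%, 1.61% and 2%. Median exon length was 1183.5 bases for genes called higher, 2628 for genes called lower and 2013 for all genes tested. With the trend with length removed in each library, 297 genes were called higher and 194 lower, and the higher share of calls went from 77.7% to 60.5%. Of the 491 genes called then, 352 were among the 638. The mitosis list had a median of −0.31 log2 with 11 called lower. These 11 include genes not called before, while cnn and mars lost their calls (moderated test, adjusted p = 0.267 and 0.0909). The replication list had a median of 0.06 with 3 called higher, and the neuronal median became −0.06.

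**Figure D5:**
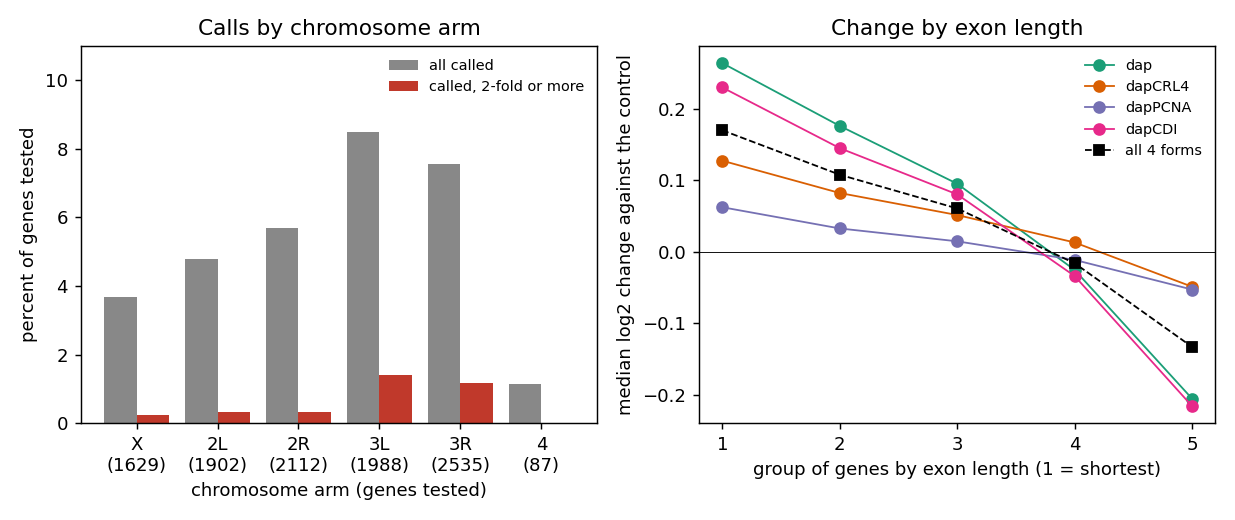
The left panel gives the percent of tested genes called on each chromosome arm, at any size (grey) and at 2-fold or more (red), and the right panel the median log2 RPKM difference from the control in 5 groups of exon length, by form and for all 4. Calls of any size took 8.5% of genes on 3L and 3.68% on X, and the median over all forms went from 0.17 in the shortest group to −0.13 in the longest.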

How the data were processed

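PolyA RNA from whole embryos was sequenced as single reads of 50 bases. The deposited values are log2 RPKM, 1 per gene and library, on genome build BDGP6, per the submitters' processing notes. For the aligner, counting tool, annotation release and strand handling, a name is not given in the sources used here. A gene with no read carries a floor of −9.10916 and is called listed at 0.

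Gene names were matched to the Ensembl annotation of BDGP6: 11329 as current symbols, 3699 by an older name and 394 without a unique match, which were tested but have no position. Depth was estimated from the spacing of low values and used only as description. The deposited log2 values were fitted in limma 3.58.1 (R 4.3.3) with 5 genotype means and the prior variance following mean level (4.73 prior degrees of freedom). The contrast was the mean of the 4 form means minus the control, and the forms were compared by the moderated F test. P-values are two-sided, adjusted over the 10396 genes by Benjamini-Hochberg, and a gene was called at an adjusted p under 0.05. Folds come from differences of log2 values with no pseudocount added. The fit was tested on simulated data. Figures were drawn with matplotlib 3.10.9.

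Named genes were dap, CycE, ago and Cdk2, the 15 largest rises and 15 largest falls among called genes whose 8 form libraries lay on 1 side of both controls, and up to 4 called members of each of 21 lists. Other genes were named after their values were seen: Unc-115a, Hsp83, stg, CycB, CycB3, polo, w, Cralbp, the single markers of neurons and neuroblasts, and the lower-ranked called members of lists. The comparison, the members and the lists were chosen with earlier results of these data known. The labels call the 2 samples of a genotype independent, and p-values measure the spread between them. Libraries were left out in turn, and scaling, filter, trend, length and grouping were varied. The values of 1 called gene of the replication list are not reported here.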

Additional observations from a re-analysis of the deposited data

Results flagged for a closer look

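In 23 genes the mean of the 4 forms differed from the control and the forms also differed among themselves (moderated F test over the 4 form means, adjusted p under 0.05 in each). With 2 libraries per genotype no single library could be tested as standing apart.

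In 7 of the lower genes the wild-type form was the nearest to the control. The adjusted p of the F test was 0.0484 for CAP-D2, 0.0484 for CycA, 0.0497 for pav, 0.0473 for tum and 0.0171 for Hey. HmgD, which encodes an HMG-box chromatin protein, had 816.3 and 723.0 RPKM in the controls, 860.4 and 834.8 in dap and 492.8 to 622.9 in the other forms (F test, 0.0171). kuk, which encodes a nuclear envelope protein, had 51.0 and 46.9 RPKM in the controls, 48.2 and 44.4 in dap and 27.5 to 35.0 in the others (F test, 0.0295). The split of wild-type dap from the stabilized forms was not tested as a contrast of its own here.

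For the other genes the form nearest to the control or farthest from it is named, though the remaining forms were not always alike. In CG31751 dapCRL4 was at 0.01 log2 and the others were between 0.50 and 0.77. IM1 ran in steps from 0.55 to 1.69 log2 over the forms, and nimB5 from 0.22 to 1.24. dapCDI stood apart for dap (0.000449), where it was highest, and for phr (0.0314) and CG31683 (0.0484), where it was nearest the control. dapPCNA was nearest the control for CG30148 (0.000841), CG9510 (0.0484), Cpr51A (0.00934) and St4 (0.0171), and lay farthest from it for CG18088 (0.0418), Cyp4p1 (0.029) and Cyp4p2 (0.00171). In the last, dapPCNA had 30.7 and 32.4 RPKM, against 10.7 and 11.1 in the controls and 9.49 to 19.1 in the other forms. The form dap was farthest from the control for CG33128 (0.0224), CG31751 (0.03), Cyp9c1 (0.0382) and IM1 (0.0233), and dapCDI for Cyp9b2 (0.0359) and nimB5 (0.0223). Cyp4p1 and Cyp4p2 are neighbouring P450 genes.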

How the results depend on the processing

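Leaving out 1 library at a time gave 60 to 1376 higher calls, 17 to 579 lower calls and 11 to 545 genes that differed among forms, against 496, 142 and 52. The higher, lower and among-form counts were 199, 84 and 112 with no filter, 181, 70 and 13 with no mean-variance trend, 211, 102 and 6 without the form dap, 260, 81 and 34 without dapCRL4, 556, 140 and 1 without dapPCNA, and 836, 224 and 201 without dapCDI. With the 8 form libraries as 1 group 163 higher and 38 lower genes were called, and quantile normalization gave 466 and 236. The higher share of calls, 77.7% at first, was 66.4% with quantile normalization, 60.9% without dap 1 and 67.4% without the form dap. Length correction gave 297 higher and 194 lower genes. In alternatives chosen after seeing the data, length correction without control 1 gave 89 and 39, and without control 2 it gave 61 and 40. Same-numbered libraries did not vary together (10 pairs, r from −0.0535 to 0.0894). The numbers therefore do not pair the samples, and a replicate block gave 335, 109 and 29.

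CycE ranged from −0.11 to 0.153 log2 with 1 library left out, and Cdk2 from −0.0374 to 0.0251. CycE changed sign to −0.0006 log2 with quantile normalization, −0.11 without control 2, −0.0255 without dap 1, −0.005 without dapCRL4 1 and −0.0078 without the form dap. Cdk2 (cdc2c) changed to 0.0076 without control 1, 0.0204 without dap 2, 0.009 without dapPCNA 2, 0.0251 without dapCDI 2, 0.0046 without dapCRL4, 0.0643 without dapPCNA and 0.0006 without dapCDI. Neither gene was called in any of these, and the cause was not tested. The other alternatives for named genes kept the direction, with 293 of the main set losing the call and 1229 staying on the same side of the threshold. In all, 36 higher and 10 lower genes were called under every alternative of that set that gave them a value.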

Other observations

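Gene families sorted by the start of their names, a choice made after values were seen, added a group the lists did not hold. Of 73 mitochondrial ribosomal protein genes tested, 21 were called higher and 0 lower, their median was 0.26 log2, and 59 had all 8 form libraries above both controls. Over all genes tested 4.77% were called higher, 1.37% lower and 12.4% had all 8 form libraries above both controls, which also stand as the background of the families below. They are short, with a median exon length of 783 bases, and with the trend with length removed their median was 0.10 log2 with 1 called higher. Cytosolic ribosomal protein genes had 1 of 89 called higher and a median of 0.09 log2. Proteasome genes had 1 of 28 called higher and a median of 0.14 log2. Of 34 cuticle protein genes with names in Cpr, 6 were called higher and 1 lower, with a median of 0.26 log2, and after length correction 5 and 1 with a median of 0.13 log2.

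The filter admitted 262 genes that were under 1 RPKM in both controls, of which 18 were called higher and 0 lower, and 10 genes that were under 1 RPKM in all 8 form libraries, of which 3 were called lower. Such genes could pass only through the group where they were high. They include CG31219, CG8539, CG31288, y, Ir64a, p24-2, Mst57Dc, CG15696 and GstD8 among the rises and Cpr72Ec, mthl8 and CG6602 among the falls.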
